A study of Mus musculus with 28 samples.

Results

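The 10 genes described here are markers of astrocytes and parts of the route by which astrocytes take up glutamate: *Slc1a2*, *Slc1a3*, *Glul*, *Aqp4*, *Gfap*, *Gja1*, *Gjb6*, *Aldoc*, *Aldh1l1* and *S100b*. They were chosen by symbol from the 49477 genes that both count tables list, and all 10 were among the 16266 genes tested, whose counts averaged 10 or more over the 28 mice. RNA came from micropunches of the amygdala that held its central and basolateral nuclei together, so each library mixes all cell types of the tissue. All mice were female C57BL6/J, bought at an age of 7 weeks, with no transgene or deletion named for any group. The 10 Water mice had water alone for 28 days. The 9 Acute mice had water for 27 days and then 20% ethanol beside water from day 28. The 9 Chronic mice had 20% ethanol beside water for 24 h every other day over the same period, and tissue was taken on day 29 in every group. The mice came as 2 independent batches of animals, with 4 Water, 4 Acute and 3 Chronic animals in the first and 6, 5 and 6 in the second.

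Astrocytes clear glutamate from the space around synapses through transporters that are driven by the sodium gradient. Inside the cell glutamine synthetase turns the glutamate into glutamine, which returns to neurons as a precursor of transmitter. The same cells are joined to each other by gap junctions, carry water and potassium channels on the endfeet around vessels, and hold much of the glycolytic capacity of brain tissue.

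The total count per mouse ran from 20004380 to 22569562, with the first batch at 20393352 to 22569562 and the second at 20004380 to 20890964. Values below are CPM, counts divided by library size after scaling of the libraries with the TMM method, and fold changes are on the log2 scale from edgeR's quasi-likelihood test with batch in the model, adjusted over all 16266 genes. Mice counted above or below the batch-adjusted mean of another group were counted on log2 CPM with batch means removed, so these numbers can differ from those on CPM. The dependence of counts on the GC content of a gene differed between mice: per 10 percentage points of GC, the slope was 0.05 log2 units higher in Chronic than in Water mice and 0.02 higher in Acute than in Water mice. Genes of choroid plexus and ependyma varied most of the other cell types, with a summed level of 10 genes between 151 and 6329.6 CPM in Water, 138 and 5835 CPM in Acute and 135 and 6628 CPM in Chronic mice.

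Together the 10 genes took up 4154 ± 181 CPM in Water (SD, n = 10), 4222 ± 172 CPM in Acute (SD, n = 9) and 4042 ± 137 CPM in Chronic mice (SD, n = 9), or 0.415%, 0.422% and 0.404% of all counts. *Slc1a2* held 42.4% of this sum in Water mice and *Glul* 22.5%. Per kilobase of exon, the level in Water mice was highest for *Glul*, at 281 ± 10.99 CPM per kilobase (SD, n = 10), followed by *Aldoc* at 177 ± 12.5 and *Slc1a2* at 134 ± 10.2. Per length, *Glul* held rank 72, *Aldoc* rank 139 and *Slc1a2* rank 208 of the 16266 genes. A step lower stood *Slc1a3* at 53.8 ± 2.08 and *S100b* at 49.7 ± 3.30 CPM per kilobase, whose mice overlapped in both batches. The other 5 genes lay between 8.27 CPM per kilobase (*Aldh1l1*) and 15.9 CPM per kilobase (*Aqp4*), with *Gja1* at 13.3, *Gfap* at 12.5 and *Gjb6* at 8.36. In this lower group the order did not hold beyond the spread between mice: *Gja1* overlapped *Gfap* in both batches, *Gjb6* overlapped *Aldh1l1* in both, *Aqp4* overlapped *Gja1* in the first and *Gfap* overlapped *Gjb6* in the second.

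**Figure D1:**
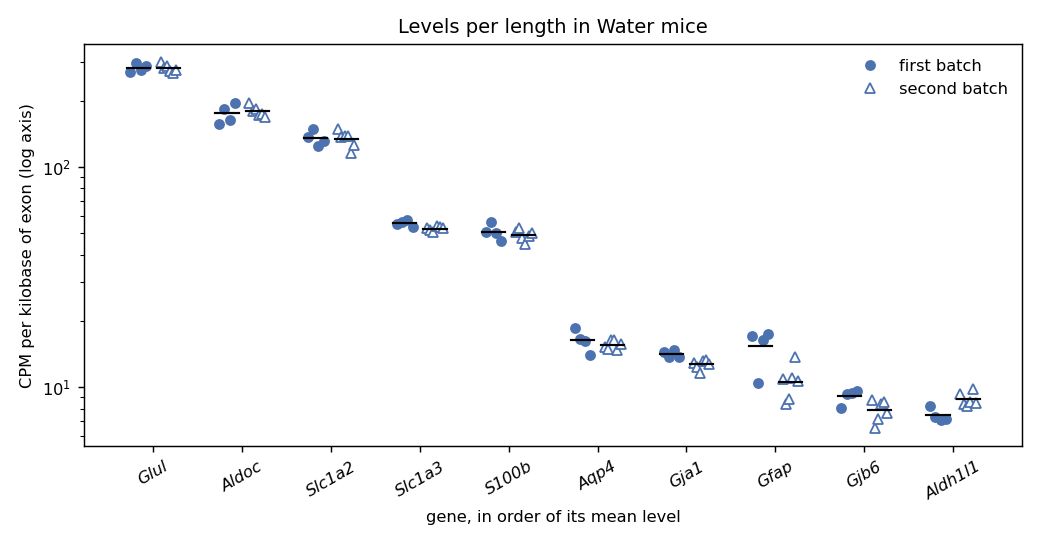
Levels per length of the 10 genes in the 10 Water mice, in CPM per kilobase of union exon on a log axis, with 1 point per mouse (filled circles, first batch; open triangles, second batch) and a line at the mean of each batch. Glul, Aldoc and Slc1a2 stand clear of the rest with means of 281, 177 and 134, and the 5 genes on the right lie between 8.27 and 15.9 with overlapping mice.

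None of the 10 genes passed an adjusted p of 0.05 in any comparison between 2 groups, by edgeR or by DESeq2, and the lowest adjusted p under the alternatives run was 0.105, for *S100b* in Chronic mice with ComBat-seq and DESeq2. Against Water, 0 of 10 genes were called in Acute mice, where 0% of all genes tested were, and 0 of 10 in Chronic mice, where 0.0184% of all genes were. Between Chronic and Acute mice it was 0 of 10 beside 0% of all genes. At an unadjusted p under 0.05, the same test gave 3 of 10 genes in Acute against Water mice, beside 9.52% of all genes. All 3 were higher in Acute mice (*S100b*, *Aldh1l1* and *Aldoc*), where 5.07% of all genes were, and 0 were lower, where 4.45% of all genes were. In Chronic against Water mice 2 of 10 passed that limit, beside 10.5% of all genes: *S100b* was higher (4.81% of all genes) and *Slc1a2* lower (5.65% of all genes). Chronic and Acute mice differed at that limit in 1 of 10 genes, *Glul*, beside 4.44% of all genes. The median log2 fold change of the 10 genes was 0.02 in Acute and -0.01 in Chronic mice against Water, where the medians of all genes were 0.001 and 0.002. The Acute and Chronic comparisons share the Water mice. In bulk tissue, fewer astrocytes and less of a transcript in each astrocyte cannot be told apart.

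**Figure D2:**
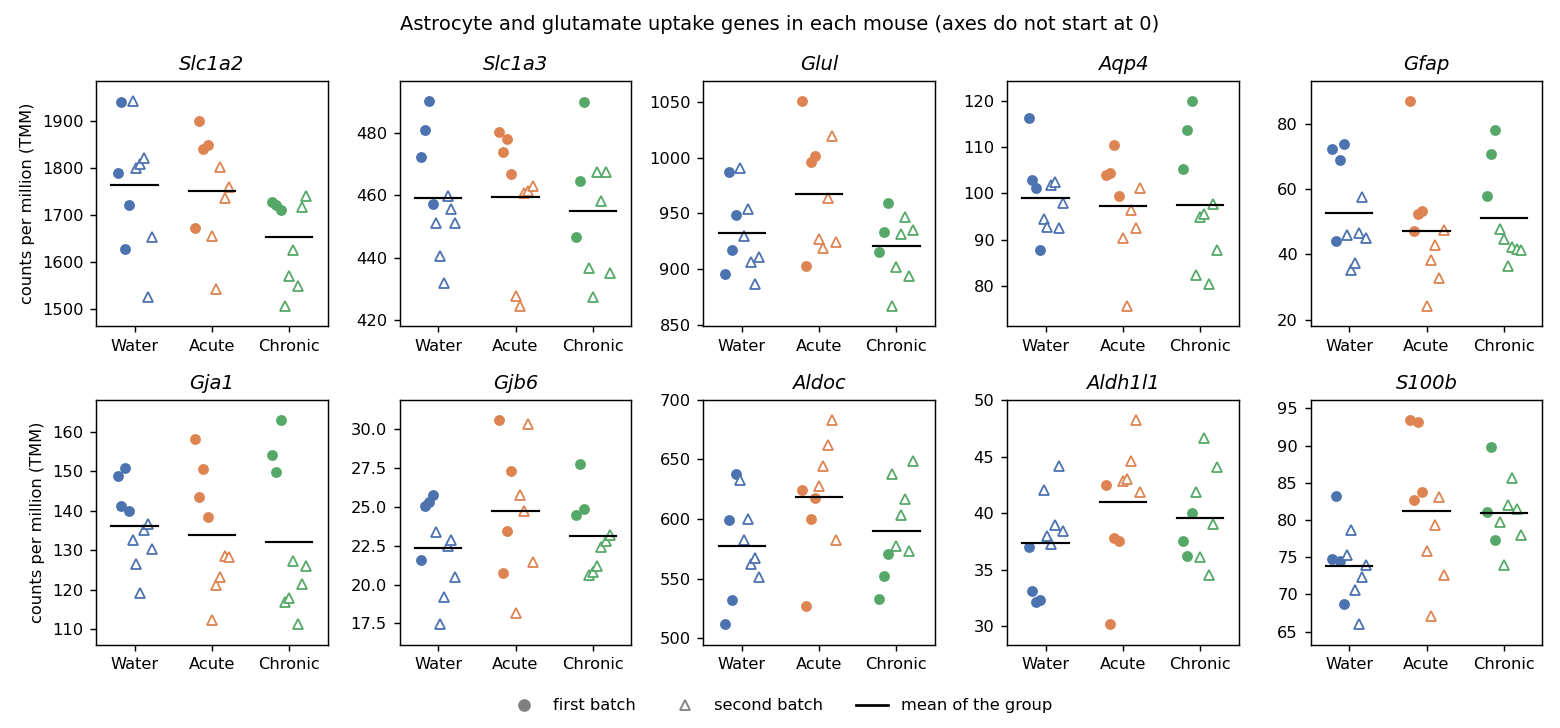
CPM of each of the 10 genes in each of the 28 mice, by group, with filled circles for the first batch, open triangles for the second and a line at the mean of the group; the vertical axes do not start at 0. The groups overlap for every gene, and Gfap and Gja1 are lower in the second batch in all 3 groups.

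**Figure D3:**
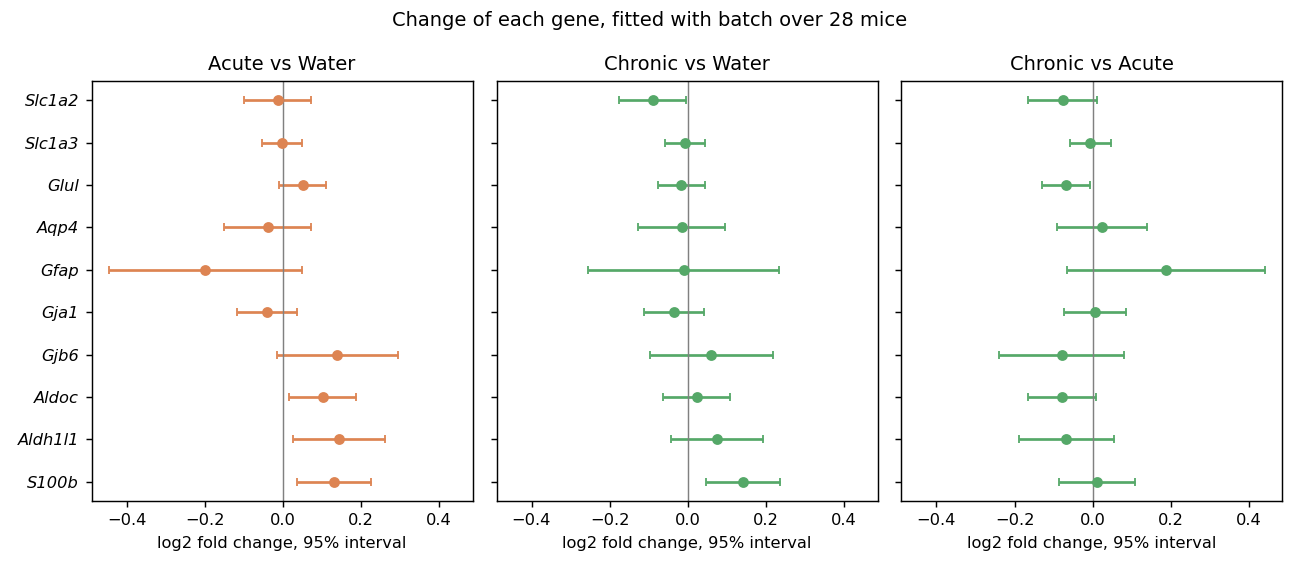
Log2 fold change of each of the 10 genes with its 95% interval in the 3 comparisons, from the fit with batch over 28 mice. The intervals that leave out 0 are those of S100b, Aldh1l1 and Aldoc in Acute mice, S100b and Slc1a2 in Chronic mice, and Glul between Chronic and Acute mice, and none of these passed the adjusted threshold.

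*Slc1a2* (chromosome 2, 102658659 to 102790784, plus strand, GRCm38) codes for GLT-1, the main glutamate transporter of forebrain astrocytes. Its level ran from 1525 to 1942 CPM in Water mice (median 1795), from 1541 to 1901 CPM in Acute mice (median 1759) and from 1507 to 1741 CPM in Chronic mice (median 1711). The 3 groups overlapped, but the highest Chronic mouse lay below the median of the Water mice. Acute and Water mice differed by -0.01 (SE 0.042, adjusted p = 0.947). In Chronic mice the transcript was 6.07% lower than in Water, a log2 fold change of -0.09 (SE 0.042, 95% interval -0.18 to -0.005, unadjusted p = 0.0398, adjusted p = 0.449), with 8 of 9 mice below the batch-adjusted Water mean. An exact permutation test within batches gave p = 0.0692 for this difference (2-sided, 32340 regroupings, smallest possible p 3.09e-05). Within the batches it was -0.04 and -0.12, and leaving out any of 9 of the 28 mice took the unadjusted p over 0.05, at a log2 value of -0.07 to -0.09, as did the replicate block (-0.09, unadjusted p = 0.0565, adjusted p = 0.497). *Slc1a2* moved with the GC slope of the libraries (Pearson r -0.56 over 28 mice, Spearman -0.56, -0.54 without the 2 mice of most extreme slope, -0.48 and -0.59 within the batches). It also ran against the total count of the library on the log2 scale (Pearson r -0.50, Spearman -0.53, -0.47 without the 2 mice of most extreme total, -0.59 and -0.54 within the batches, 0.03 after the GC and length trend was taken out of *Slc1a2* alone), which with batch means removed was 0.049 higher in Chronic than in Water mice. With offsets that take out each mouse's trend on GC content and length, the Chronic difference was -0.01 (unadjusted p = 0.902, adjusted p = 0.995). The Acute difference from Water changed sign with these offsets, to 0.07 (unadjusted p = 0.146, adjusted p = 0.758).

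*Slc1a3* (chromosome 15, 8634124 to 8710764, minus strand) codes for GLAST, the other astrocyte glutamate transporter. Its values lay between 432 and 490.0 CPM in Water mice (median 456), 425 and 480.3 CPM in Acute mice (median 463) and 427 and 489.8 CPM in Chronic mice (median 458). The groups lay on top of each other. With log2 fold changes of -0.002 in Acute (SE 0.025, 95% interval -0.05 to 0.05) and -0.01 in Chronic mice (SE 0.025, 95% interval -0.06 to 0.04), this was the most tightly bounded of the 10 genes. Its SD over the 28 mice, 0.045 on the log2 scale, was lower than that of all but 0.547% of the genes tested.

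*Glul* (chromosome 1, 153899944 to 153909723, plus strand) codes for glutamine synthetase. Water mice ran from 887 to 991 CPM (median 924), Acute mice from 903 to 1050.5 CPM (median 964) and Chronic mice from 867 to 959.6 CPM (median 932). Acute mice reached the highest values, and the lowest Acute mouse lay within the range of both other groups. The log2 fold change against Water was 0.05 in Acute (SE 0.029, adjusted p = 0.594) and -0.02 in Chronic mice (SE 0.029, adjusted p = 0.886). The Acute value was 0.07 without Acute mouse 34 of the first batch (unadjusted p = 0.0316, adjusted p = 0.550) and 0.06 without Water mouse 1 of the second (unadjusted p = 0.0407, adjusted p = 0.511). Chronic mice were 4.58% lower than Acute mice, a log2 difference of -0.07 (SE 0.030, unadjusted p = 0.0333, adjusted p = 0.998, exact permutation p = 0.0346), with 9 of 9 Chronic mice below the batch-adjusted Acute mean and differences of -0.08 and -0.06 in the batches. The unadjusted p was over 0.05 without any of 8 of the 28 mice, with log2 values of -0.05 to -0.06.

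Of 20 other genes of glutamate handling, which cover the remaining transporters of the family, glutaminases, aminotransferases, glutamine carriers and vesicular transporters, 19 were tested and none passed the adjusted threshold in any comparison. *Slc1a7* had a mean of 1.21 counts and was not tested. Before adjustment, at p under 0.05, 0 were higher and 1 was lower in Acute mice, and 1 was higher and 0 were lower in Chronic mice. The list's median log2 fold change was 0.02 in both. For reading the counts of this and the other lists, of all 16266 genes tested 8224 had a positive value in Acute and 8295 in Chronic mice, and at the same limit 5.07% were higher and 4.45% lower in Acute mice, against 4.81% and 5.65% in Chronic mice. *Slc1a4*, a carrier of neutral amino acids that belongs to the same family, was the lower one, at 78.1 ± 3.49 CPM in Water (SD, n = 10) and 74.3 ± 3.16 CPM in Acute mice (SD, n = 9; log2 fold change -0.07, adjusted p = 0.477). *Slc1a6*, a glutamate transporter of neurons, was at 9.57 ± 1.61 CPM in Water and 11.2 ± 1.83 CPM in Chronic mice (log2 fold change 0.21, adjusted p = 0.436). The aminotransferase genes *Got1* and *Got2*, which interconvert glutamate and aspartate, had log2 fold changes of 0.05 and 0.04 in Acute and of 0.01 and 0.04 in Chronic mice.

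*Aqp4* codes for the water channel of astrocyte endfeet. It ran from 87.7 to 116 CPM in Water mice (median 99.5), from 75.7 to 110.3 CPM in Acute mice (median 99.4) and from 80.4 to 119.8 CPM in Chronic mice (median 95.4). No group stood apart. Its log2 fold change was -0.04 in Acute (SE 0.054, 95% interval -0.15 to 0.07) and -0.02 in Chronic mice (SE 0.054, 95% interval -0.13 to 0.10). With a mouse left out the Acute value ran from -0.07 (without Water mouse 43 of the first batch) to -0.009 (without Acute mouse 2 of the second). The Chronic value hid opposite values, 0.15 within the first batch and -0.11 within the second, and the difference between batches was -0.26 (SE 0.106, unadjusted p = 0.0223, adjusted p = 0.774). It was -0.21 without Chronic mouse 39 (unadjusted p = 0.0766, adjusted p = 0.571) and -0.19 without Water mouse 43 (unadjusted p = 0.0731, adjusted p = 0.976), both of the first batch.

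The 12 other genes of ion and water handling at the endfoot and membrane were all tested and none was called. Before adjustment, at p under 0.05, 0 were higher and 1 lower in Acute mice, and 1 higher and 2 lower in Chronic mice, with list medians of 0.01 and 0.02. *Dag1*, the dystroglycan that anchors the endfoot to the basal lamina, was the lower gene in Acute mice (log2 fold change -0.06, adjusted p = 0.468) and one of those in Chronic mice (-0.06, adjusted p = 0.349), with 8 of 9 mice of each group below the batch-adjusted Water mean. *Slc4a4*, a sodium bicarbonate cotransporter, was at 126 ± 14.9 CPM in Water (SD, n = 10) and 112 ± 14.4 CPM in Chronic mice (SD, n = 9; log2 fold change -0.16, adjusted p = 0.341), and 9 of 9 Chronic mice lay below the batch-adjusted Water mean. *Atp1b2*, a subunit of the sodium pump, had a log2 fold change of 0.07 in Chronic mice (adjusted p = 0.384). *Clcn2*, a chloride channel, had values of -0.08 in Acute and 0.03 in Chronic mice.

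*Gja1* (chromosome 10, 56377330 to 56402513, plus strand) codes for connexin 43, the main connexin of astrocyte gap junctions. Over both batches it ran from 119 to 151 CPM in Water mice (median 136), from 112 to 158 CPM in Acute mice (median 129) and from 111 to 163 CPM in Chronic mice (median 126). Against Water the log2 fold change was -0.04 in Acute (SE 0.038, adjusted p = 0.750) and -0.04 in Chronic mice (SE 0.038, adjusted p = 0.784). The batches were read apart for this gene, since the Chronic difference was 0.10 in the first and -0.11 in the second. In the first batch the 3 Chronic mice had 149.9, 154 and 163 CPM and the 4 Water mice had 140.1, 141, 149 and 151 CPM. In the second batch the 6 Chronic mice lay between 111 and 127 CPM (median 119.8) and the 6 Water mice between 119 and 137 CPM (median 131). Chronic mice were thus the higher group in the first batch and the lower one in the second, with overlap in each. The difference between batches was -0.21 (SE 0.069, 95% interval -0.36 to -0.07, unadjusted p = 0.00466, adjusted p = 0.718).

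For such differences between the batches, 0 of 10 genes were called for Acute against Water mice, beside 0% of all genes tested, and 0 of 10 for Chronic against Water mice, beside 0.00615% of all genes. At an unadjusted p under 0.05 the numbers were 0 of 10 beside 4.13% of all genes for Acute mice and 2 of 10, *Gja1* and *Aqp4*, beside 6.15% of all genes for Chronic mice.

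*Gjb6* (chromosome 14, 57123303 to 57133611, minus strand) codes for connexin 30, the second connexin of astrocytes. Its CPM ran from 17.5 to 25.7 in Water mice (median 22.7), from 18.2 to 30.6 in Acute mice (median 24.7) and from 20.6 to 27.8 in Chronic mice (median 22.8). The range of the Acute mice was the widest and covered that of the Chronic mice. Log2 fold changes were 0.14 in Acute (SE 0.076, 95% interval -0.02 to 0.30, adjusted p = 0.576) and 0.06 in Chronic mice (SE 0.076, 95% interval -0.10 to 0.22, adjusted p = 0.825). The Acute value was 0.08 without Acute mouse 4 of the second batch (unadjusted p = 0.254). It was 0.18 without Acute mouse 34 (unadjusted p = 0.0195, adjusted p = 0.506), 0.16 without Acute mouse 35 (unadjusted p = 0.0485, adjusted p = 0.649) and 0.18 without Acute mouse 1 of the second batch (unadjusted p = 0.0197, adjusted p = 0.563).

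Of 10 other connexin and pannexin genes 9 were tested, since *Gja5* had a mean of 9.11 counts, and none was called. In both comparisons with Water, 1 gene was higher and 0 were lower at an unadjusted p under 0.05, and 8 of 9 values were positive, with medians of 0.07 in Acute and 0.10 in Chronic mice, where 5.07% and 4.81% of all genes were higher at that limit and 8224 and 8295 of 16266 were positive. *Panx2*, a pannexin found mainly in neurons, was the one in Chronic mice, at 78.2 ± 6.95 CPM in Water (SD, n = 10) and 85.2 ± 5.87 CPM in Chronic mice (SD, n = 9; log2 fold change 0.11, SE 0.030, adjusted p = 0.211), with 9 of 9 mice above the batch-adjusted Water mean. With the GC and length offsets its value was 0.04 (adjusted p = 0.866), and with ComBat-seq and DESeq2 it was 0.11 and passed (adjusted p = 0.0374). *Panx1* was the one in Acute mice (log2 fold change 0.10, adjusted p = 0.514). *Gjb2* and *Gjc1*, at 2.32 and 3.29 CPM in Water, had log2 fold changes of 0.17 and -0.05 in Acute and of 0.22 and -0.19 in Chronic mice.

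*Aldoc* (chromosome 11, 78322968 to 78327781, plus strand) codes for aldolase C, the glycolytic aldolase of astrocytes. It ran from 512 to 637 CPM in Water mice (median 575), from 527 to 683 CPM in Acute mice (median 625) and from 533 to 649 CPM in Chronic mice (median 578). The median of the Acute mice lay near the top of the Water range, and the groups overlapped. Acute mice were 7.32% higher, a log2 fold change of 0.10 (SE 0.042, 95% interval 0.02 to 0.19, unadjusted p = 0.0209, adjusted p = 0.477, exact permutation p = 0.0465), with 7 of 9 mice above the batch-adjusted Water mean and differences of 0.06 and 0.13 in the batches. Without Acute mouse 4 of the second batch the value was 0.09 (unadjusted p = 0.0518, adjusted p = 0.563), and with the GC and length offsets it was 0.08 (unadjusted p = 0.0567). Chronic mice differed from Water by 0.02 (SE 0.042, adjusted p = 0.888).

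Among 18 other genes of glycolysis and lactate transport, 17 were tested and none was called. *Pgam1* was not in both tables under the same identifier and was not compared. In Acute mice 14 of 17 values were positive, 2 of them with an unadjusted p under 0.05 and none negative at that limit, and the median was 0.04, beside 8224 of 16266 positive and 5.07% higher over all genes. *Ldhb*, a lactate dehydrogenase subunit, was at 266 ± 19.0 CPM in Water (SD, n = 10) and 289 ± 21.5 CPM in Acute mice (SD, n = 9; log2 fold change 0.11, adjusted p = 0.430), with 9 of 9 mice above the batch-adjusted Water mean, and *Eno2*, the neuronal enolase, had a log2 fold change of 0.06 (adjusted p = 0.503). In Chronic mice 15 of 17 values were positive, none passed the unadjusted limit and the median was 0.03, beside 8295 of 16266 positive over all genes. *Pgk1* and the lactate carrier gene *Slc16a7* had log2 fold changes of 0.05 and -0.09 in Acute and of 0.003 and -0.08 in Chronic mice.

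*Aldh1l1* (chromosome 6, 90486427 to 90600203, plus strand) codes for a folate enzyme that serves as a general marker of astrocytes. Its CPM ran from 32.1 to 44.2 in Water mice (median 37.6), from 30.2 to 48.3 in Acute mice (median 42.5) and from 34.5 to 46.7 in Chronic mice (median 39.0). The lowest and the highest of all 28 CPM values were both in Acute mice, but the second batch was higher by 0.20 on the log2 scale than the first. With batch means removed, the lowest was Chronic mouse 4 of the second batch (-0.252), below Acute mouse 34 of the first (-0.247). The highest was then still an Acute mouse (0.245). Against Water, the log2 fold change of Acute mice was 0.14 (SE 0.058, 95% interval 0.02 to 0.26, unadjusted p = 0.0195, adjusted p = 0.469, exact permutation p = 0.0237), with 8 of 9 mice above the batch-adjusted Water mean and differences of 0.13 and 0.15 in the batches. Without Acute mouse 4 of the second batch it was 0.12 (unadjusted p = 0.0517, adjusted p = 0.563), and without Acute mouse 34 of the first batch, the lowest of the group, it was 0.18. Chronic mice differed by 0.08 (SE 0.058, adjusted p = 0.681).

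*S100b* (chromosome 10, 76253853 to 76261159, plus strand), a calcium binding protein of astrocytes that oligodendrocytes also make, had the smallest p of the 10 genes in both comparisons with Water. It ran from 66.0 to 83.3 CPM in Water mice (median 74.3), from 67.2 to 93.4 CPM in Acute mice (median 82.6) and from 73.9 to 89.8 CPM in Chronic mice (median 81.1). The groups overlapped, and the lowest Chronic mouse lay near the Water median. Acute mice were 9.47% higher than Water mice, a log2 fold change of 0.13 (SE 0.046, 95% interval 0.04 to 0.22, unadjusted p = 0.00816, adjusted p = 0.430, exact permutation p = 0.0238), with 8 of 9 mice above the batch-adjusted Water mean and differences of 0.23 and 0.05 within the first and second batch, which differed by -0.17 (unadjusted p = 0.0583, adjusted p = 0.999). Leaving out any of 6 mice took the unadjusted p of this difference between batches under 0.05, with adjusted p no lower than 0.789. Chronic mice were 10.3% higher, a log2 fold change of 0.14 (SE 0.046, 95% interval 0.05 to 0.24, unadjusted p = 0.00458, adjusted p = 0.252, exact permutation p = 0.00303), with 9 of 9 mice above the batch-adjusted Water mean and 0.14 in both batches. Chronic and Acute mice differed by 0.01 (95% interval -0.09 to 0.11). *S100b* overlaps *Dip2a* on the opposite strand, and whether the libraries kept the strand is not given in the sources used here. Annotated genes also overlap *Aldh1l1* (on both strands), *Glul* (on both strands) and *Slc1a3* (on the same strand). On the opposite strand alone they overlap *Slc1a2*, *Aqp4* and *Gfap*. With the GC and length offsets the values of *S100b* were 0.10 in Acute (unadjusted p = 0.0220, adjusted p = 0.643) and 0.13 in Chronic mice (unadjusted p = 0.00536, adjusted p = 0.551).

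*Gfap* (chromosome 11, 102887336 to 102900912, minus strand), the intermediate filament of astrocytes that is used as a mark of their reactive state, had the largest spread of the 10 over the mice, an SD of 0.29 on the log2 scale. Its level ran from 35.2 to 73.8 CPM in Water mice (median 46.2), from 24.3 to 86.9 CPM in Acute mice (median 47.2) and from 36.4 to 78.0 CPM in Chronic mice (median 44.8). On CPM, both the lowest and the highest mouse were Acute, and the second batch was lower by 0.64 on the log2 scale than the first. With batch means removed, the lowest was still an Acute mouse (-0.751). The highest was then Water mouse 5 of the second batch (0.494), above Acute mouse 33 of the first (0.469). The log2 fold change against Water was -0.20 in Acute (SE 0.120, 95% interval -0.45 to 0.05, adjusted p = 0.608) and -0.01 in Chronic mice (SE 0.120, 95% interval -0.26 to 0.23, adjusted p = 0.982), both with intervals that held 0. Without Acute mouse 33 of the first batch the Acute value was -0.30 (unadjusted p = 0.0124, adjusted p = 0.581), without Water mouse 41 of that batch it was -0.26 (unadjusted p = 0.0278, adjusted p = 0.465), and without Acute mouse 1 of the second batch it was -0.13 (unadjusted p = 0.250).

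Other lists describe the identity and the state of the cells. Of 26 other astrocyte identity genes 25 were tested and none was called. *Ppp1r3c* was not in both tables under the same identifier. In Acute mice 18 of 25 were positive (median 0.06), with 6 higher and 1 lower before adjustment (p under 0.05), where 8224 of all 16266 genes were positive, 5.07% higher and 4.45% lower. In Chronic mice 19 of 25 were positive (median 0.02), with 4 higher and 0 lower, where 8295 of all genes were positive, 4.81% higher and 5.65% lower. *Fgfr3*, a growth factor receptor of astrocytes, was at 79.6 ± 6.14 CPM in Water (SD, n = 10) and 84.7 ± 6.27 CPM in Acute mice (SD, n = 9; log2 fold change 0.10, adjusted p = 0.447), with 9 of 9 mice above the batch-adjusted Water mean, and had a value of 0.08 in Chronic mice (adjusted p = 0.434). *Ttyh1*, a membrane protein of astrocytes, had a log2 fold change of 0.06 in Acute mice (adjusted p = 0.447), again with 9 of 9 mice above the batch-adjusted Water mean. *Slc25a18*, the mitochondrial glutamate carrier, was at 45.7 ± 5.70 CPM in Water and 51.3 ± 4.31 CPM in Chronic mice (log2 fold change 0.17, adjusted p = 0.301). The transcription factor gene *Nfib* was the lower one, at 81.5 ± 10.5 CPM in Water and 70.0 ± 9.55 CPM in Acute mice (log2 fold change -0.22, adjusted p = 0.413).

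Of 24 genes known from reactive astrocytes 19 were tested and none was called. *Lcn2*, *Timp1*, *Cxcl10*, *Ptx3* and *Tgm1* had means between 1 and 4.39 counts and were not tested. In Acute mice 7 of 19 values were positive (median -0.05) and in Chronic mice 6 of 19 (median -0.02). The 2 genes that were higher in Acute mice at p under 0.05 before adjustment were *Serpina3n*, a protease inhibitor, at 10.95 ± 1.48 CPM in Water (SD, n = 10) and 12.6 ± 1.72 CPM in Acute mice (SD, n = 9; log2 fold change 0.21, adjusted p = 0.467), and *H2-D1*, a class I histocompatibility gene (log2 fold change 0.15, adjusted p = 0.501). None passed that limit in Chronic mice, where *Srgn* had a value of -0.16 (adjusted p = 0.485). *Cd109* had log2 fold changes of -0.25 in Acute and -0.06 in Chronic mice.

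Markers of other cell types moved with some of the 10 genes across mice. The pairs given here are those of largest r, of either sign, among all pairs of the 10 genes with the scores. Most of the other pairs were weaker, and group means were not removed. *Gfap* followed the choroid plexus and ependyma score, the mean log2 CPM of 10 genes with batch means removed, with a Pearson r of 0.72 over 28 mice (Spearman 0.77, 0.68 without the 2 mice of most extreme score, 0.91 and 0.73 within the batches). The score was lower than in Water by 0.23 on average in Acute and by 0.22 in Chronic mice, with ranges of -1.78 to 2.37 in Water, -1.99 to 2.03 in Acute and -2.10 to 2.19 in Chronic mice; 1 of 10 genes of this list had a positive value in each comparison with Water (medians -0.13 and -0.14) and none was called. The median summed level of these genes was 1370 CPM in Water, 1556 CPM in Acute and 805 CPM in Chronic mice, so the Acute mice were the higher group by that measure. That sum keeps the batch means. The highest means in it were those of *Ttr* (1184 ± 1252 CPM) and *Enpp2* (805 ± 744 CPM) in Water mice (SD, n = 10). *Gfap* ran against the neuron score (r -0.51). *S100b* and *Aldh1l1* followed the oligodendrocyte score of 9 genes, with r of 0.57 and 0.53. For *S100b* the r was 0.79 and 0.26 within the first and second batch and 0.36 without the 2 mice of most extreme score, and for *Aldh1l1* it was 0.70, 0.35 and 0.38. *S100b* also followed the endothelial score (0.54, with 0.70 and 0.34 within the batches and 0.31 without the 2 most extreme mice) and that of oligodendrocyte precursors (0.50, with 0.86 and 0.05 within the batches and 0.26 without those mice). With the GC and length trend taken out of *S100b* alone, and not out of the scores, its r to the 3 scores was 0.60 for oligodendrocytes, 0.58 for endothelial cells and 0.61 for the precursors. *Aqp4* followed the endothelial (0.51) and oligodendrocyte (0.49) scores, and *Slc1a2* the microglia score (0.50, with 0.61 and 0.47 within the batches, 0.43 without the 2 most extreme mice and 0.71 after the GC and length trend was taken out of *Slc1a2* alone). The microglia score was 0.01 lower in Chronic than in Water mice, with 3 of 10 genes positive, and the summed level of its genes ran from 365 to 427 CPM in Water and from 375 to 423 CPM in Chronic mice. The mean oligodendrocyte score was 0.10 higher in Acute and 0.06 higher in Chronic than in Water mice, but the median summed level of its genes was lower, at 2580 CPM in Water, 2391 CPM in Acute and 2347 CPM in Chronic mice. Unlike the score, this sum keeps the batch means, and the groups differ in their mix of batches. Its gene *Mbp* was at 777 ± 610 CPM in Water mice (SD, n = 10), but had an SE of 0.062 in the fit with batch (Acute against Water). Of the list 8 of 9 genes had positive values in both, with medians of 0.12 and 0.05 and none called, and the summed level ran from 1258 to 3249.9 CPM in Water, from 1640.2 to 3268 CPM in Acute and from 1827 to 3156 CPM in Chronic mice. Of the markers, *Otx2* and *Tmem212* of the choroid plexus and ependyma list were at 0 in some mice, and none of the 9 oligodendrocyte markers was. The part of the neuron, choroid plexus, ependyma, oligodendrocyte, precursor, endothelial and microglia markers in the values of *Gfap*, *S100b*, *Aldh1l1*, *Aqp4* and *Slc1a2* was not tested. The lists for neurons, oligodendrocyte precursors, microglia and endothelial cells had medians of 0.04, 0.01, 0.01 and 0.01 in Acute and of 0.01, -0.01, -0.02 and -0.02 in Chronic mice, with none called. At an unadjusted p under 0.05, 2, 2, 1 and 1 of 10 genes were higher in Acute mice, beside 5.07% of all genes. In Chronic mice 1, 0, 0 and 2 were higher, beside 4.81%. In each list 0 were lower, where 4.45% of all genes were in Acute and 5.65% in Chronic mice. These correlations are descriptions, and the points share library depth and tissue punch.

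**Figure D4:**
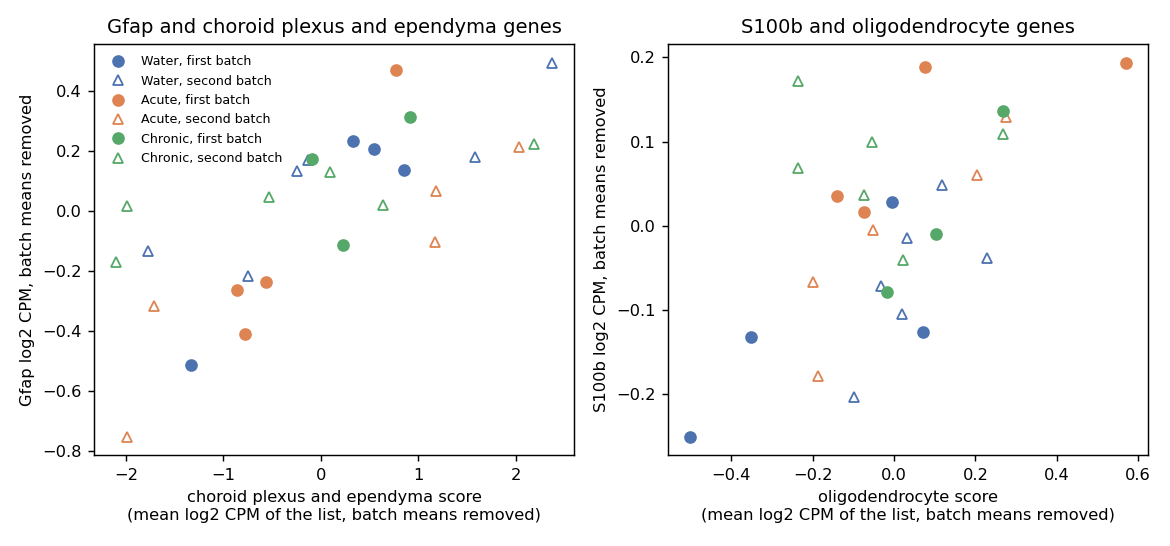
Left, Gfap against the choroid plexus and ependyma score, and right, S100b against the oligodendrocyte score, in log2 CPM with batch means removed, with 1 point per mouse, colours for groups and filled or open points for the first or second batch. Gfap rises along the score with r = 0.72 over 28 mice, and S100b follows the oligodendrocyte score with r = 0.57, and the mouse lowest in both is a Water mouse of the first batch.

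The 10 genes did not all move together over the mice. Of their 45 pairs, 33 had a Pearson r above 0 and 26 were above 0 in both batches, but the median r was 0.20 and 6 pairs exceeded 0.5. *Glul* and *Aldoc* were the closest pair, with r of 0.72 (Spearman 0.72, 0.64 without the 2 most extreme mice, 0.85 and 0.59 within the batches, 0.69 after the GC and length trend was taken out). *Gjb6* had 0.55 to *Aldoc* (0.47 without the 2 most extreme mice), 0.53 to *Glul* (0.26 without them) and 0.50 to *Aldh1l1* (0.38 without them). The other pairs above 0.5 were those of *Gja1* with *Aqp4* (0.53, and 0.53 without the 2 most extreme mice) and with *Gfap* (0.52, and 0.37 without them), but *Aqp4* and *Gfap* had 0.12 to each other. *Gja1* had 0.47 to *Aldh1l1*, 0.25 to *Gjb6* and 0.08 to *Glul*. The lowest r, -0.50, was that of *Aqp4* and *Aldoc* (-0.51 and -0.50 in the batches, -0.39 without the 2 most extreme mice, -0.43 after the GC and length trend was taken out). The transporters *Slc1a2* and *Slc1a3* had an r of 0.16 to each other. These values are over 28 mice with batch means removed, and all genes of a mouse share 1 library.

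**Figure D5:**
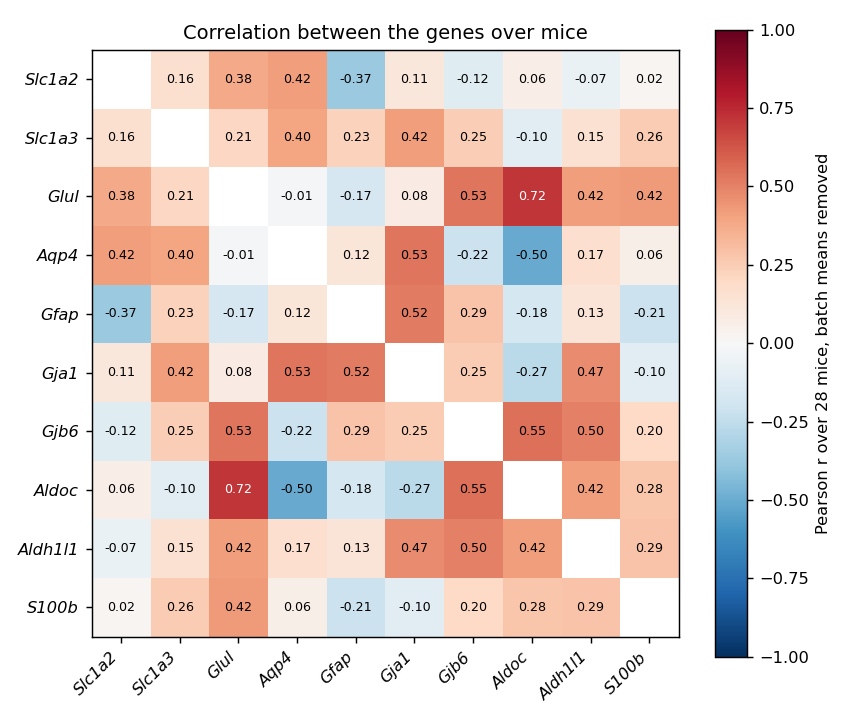
Pearson r between each pair of the 10 genes over 28 mice, on log2 CPM with batch means removed, from -1 (blue) to 1 (red). The highest value is 0.72, for Glul and Aldoc, and the lowest is -0.50, for Aqp4 and Aldoc.

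Among the 5 other genes whose values over the mice were most like the mean of the 10 standardized genes were *Olig1* (r = 0.79), *Ddah1* (0.79), *Selenop* (0.78) and *Tsc22d3* (0.73), each over 28 mice with batch means removed. Of the 10 genes themselves, *Glul* (0.71) and *Aldh1l1* (0.69) were closest to that mean, which includes them, and *Gfap* (0.27) was farthest.

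The promoters of *Glul* and *Aldoc*, the pair that moved most closely together, and of *S100b*, the gene with the smallest p, are shown to let their sequences be compared. They come from RefSeq windows on GRCm38.p6, which matched 9 of the 10 genes by symbol. Each line holds bases upstream of the start site on the plus strand, 5′ to 3′, and stops before the first annotated base of the gene: chr1:153899679-153899928 for *Glul*, chr11:78322823-78322967 for *Aldoc* (the first of 2 windows of this gene) and chr10:76253586-76253835 for *S100b*. Capitals mark TTGGC or its reverse complement GCCAA, the half-site of the nuclear factor I proteins.
Glul: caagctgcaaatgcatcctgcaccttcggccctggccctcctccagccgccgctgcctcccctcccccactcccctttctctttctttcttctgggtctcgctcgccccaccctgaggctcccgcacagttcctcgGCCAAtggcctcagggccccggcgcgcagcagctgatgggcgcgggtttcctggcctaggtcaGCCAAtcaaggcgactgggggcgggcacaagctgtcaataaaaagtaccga
Aldoc: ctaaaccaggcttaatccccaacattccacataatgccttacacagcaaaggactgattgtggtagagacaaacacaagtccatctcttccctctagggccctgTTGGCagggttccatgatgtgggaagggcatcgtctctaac
S100b: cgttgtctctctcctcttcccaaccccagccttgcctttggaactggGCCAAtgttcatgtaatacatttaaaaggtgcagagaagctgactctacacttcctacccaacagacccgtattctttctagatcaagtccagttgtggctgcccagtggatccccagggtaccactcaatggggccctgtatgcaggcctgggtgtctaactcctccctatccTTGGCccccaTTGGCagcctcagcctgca

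The half-site was found 2 times for *Glul*, 1 time for *Aldoc* and 3 times for *S100b* in these stretches. Over the 250 bases upstream of the start, on either strand, 41.5% of all 32851 promoter windows held it, and 4 of the 10 windows of these genes did (*Aldoc*, *Glul*, *S100b* and *Slc1a2*). The full palindrome, TTGGC and GCCAA with 5 bases between them, was in 0.0365% of all windows and in none of the 10. The GC box GGGCGG was in 32.7% of all windows and in 4 of the 10, the STAT motif TTCNNNGAA in 7.02% and in 2, the TATA box TATAAA in 12.4% and in 1, and the E-box CACGTG in 6.02% and in 0. These matches describe letters in a window and were not tested against the expression values.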

How the data were processed

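RNA-seq of amygdala micropunches from 28 female mice was analysed from 2 tables, 1 for each batch. The authors quantified paired-end reads with Salmon 0.14.1 after FastQC 0.11.8 on a GRCm38 transcriptome, summarized them by gene and deposited whole-number counts per gene and mouse, before batch adjustment and without normalization. The gene identifiers of *Glul* and *Aqp4* carry different versions in the 2 tables, so the tables were joined without versions. No column was left out. Mice were grouped by their labels, and each is a separate animal.

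Genes averaging 10 or more counts were tested with edgeR 4.0.16 (quasi-likelihood test, TMM, batch and group over all 28 mice) in R 4.3.3, with p-values 2-sided and adjusted by Benjamini-Hochberg over 16266 genes. Differences between batches were tested as interactions. Single genes were also tested by exact permutation within batches on log2 CPM (prior count 2). Levels per length are TMM-scaled CPM over the union of exons in GENCODE M21. Counting error is set by total counts of about 20 M per mouse and the precision of these genes by the spread between mice. Replicate numbers of the second batch were checked as pairs: over 16 same-numbered pairs, the correlation of deviations ran from -0.35 to 0.34 and 4 exceeded 0.1, so the numbers were not read as pairs. Of 55 pairs of mice of a group and batch, none agreed within sampling noise (chi-square per degree of freedom 3.95 to 20.8).

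The 10 genes, the other lists (glutamate handling, ion and water, gap junction, astrocyte identity, reactive astrocyte, glycolysis and lactate, and markers of neurons, oligodendrocytes, oligodendrocyte precursors, microglia, endothelial cells, choroid plexus and ependyma) and the tests were chosen with earlier results of these data known. The text names all 10 genes, from each functional list the genes with an adjusted p under 0.05 or else up to 4 with the smallest p against Water, and, of the 5 genes most like the mean of the 10, 4, as the other is not reported here. Alternatives were DESeq2 1.42.0 with batch, ComBat-seq (sva 3.50.0) followed by DESeq2, RLE scaling, no filter, a minimum of 100 counts, a replicate block, each batch alone, a prior count of 0.5 and each mouse left out. Offsets for each mouse's trend on GC content and length were added after the data had been seen.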

Additional observations from a re-analysis of the deposited data

Results flagged for a closer look

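Of 30 groups of mice tested for a gap, 1 for each gene and group with batch means removed, 2 held a mouse far from the others, and chance flags about 1 in 20 groups. *Aqp4* in Water mouse 43 of the first batch lay at -0.27 on the log2 scale (87.7 CPM), below the next Water mouse at -0.06. *Aldh1l1* in Acute mouse 34 of the first batch lay at -0.25 (30.2 CPM), below the next Acute mouse at 0.03. Without Water mouse 43 the log2 fold change of *Aqp4* was -0.07 in Acute and -0.05 in Chronic mice, and without Acute mouse 34 that of *Aldh1l1* in Acute mice was 0.18.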

How the results depend on the processing

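No gene of the 10 was called in the 3 comparisons between groups under the alternatives run, or in the 2 batch differences, which were run with RLE scaling, a minimum of 100 counts, the GC and length offsets and each mouse left out. The lowest adjusted p was 0.105. Of 483 fold changes of named genes under other settings 27 changed sign, and of 1876 with a mouse left out 64 did. The GC and length offsets were added after seeing the data. The number of the 10 genes at an unadjusted p under 0.05 depended on the setting, and the cause was not tested. For Acute against Water it was 3, 2 with the offsets and in the second batch alone, and 1 in the first batch alone. For Chronic against Water it was 2, 3 in the second batch alone, 1 with no filter, with the offsets and with the replicate block, and 0 in the first batch alone. For Chronic against Acute it was 1, and 0 with no filter and in the first or second batch alone. With a mouse left out it ran from 1 to 5 for Acute against Water (1 without Acute mouse 4 of the second batch, 5 without Acute mouse 34), from 1 to 2 for Chronic against Water, from 0 to 2 for Chronic against Acute, from 0 to 1 for the batch difference of Acute mice and from 1 to 2 for that of Chronic mice. The replicate block, whose numbers do not pair the mice, left 3 genes at that limit for Acute against Water. With it *Slc1a2* in Chronic mice (p = 0.0565) and *Eno2* (0.0649) and *H2-D1* (0.0528) in Acute mice no longer had an unadjusted p under 0.05, and no adjusted call of a named gene changed. For single genes, 5 exact tests had p under 0.05, within 1.5 times of that with DESeq2 size factors and with the other prior count.

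Sign changes were as follows, on the log2 scale. In the first batch alone, Acute against Water gave *Slc1a2* 0.0347, *Aqp4* 0.0327 and *Gja1* 0.0216, Chronic against Water gave *Aqp4* 0.145, *Gfap* 0.0883, *Gja1* 0.0992 and *Aldoc* -0.0477, and Chronic against Acute gave *Gjb6* 0.0117, *Aldh1l1* 0.0368 and *S100b* -0.0900. In the second batch alone, *Slc1a3* was 0.00083 in Chronic against Water mice, and in Chronic against Acute mice *Slc1a3* was 0.00269, *Aqp4* -0.0241 and *Gja1* -0.0315. With the GC and length offsets, Acute against Water gave *Slc1a2* 0.0650 and *Slc1a3* 0.0111, Chronic against Water gave *Slc1a3* 0.0203, *Aqp4* 0.0375, *Gja1* 6.44e-05 and *Aldoc* -0.00284, Chronic against Acute gave *Slc1a3* 0.00921, and the batch differences were *Slc1a3* 0.00166 and *Aldh1l1* -0.0189 for Acute and *S100b* -0.0358 for Chronic mice. *Slc1a3* was 0.00468 in Acute against Water mice with no filter, its batch difference for Acute mice was 2.75e-05 with RLE scaling, and that of *S100b* for Chronic mice was -0.00347 at a minimum of 100 counts. With a mouse left out, Acute against Water ran from -0.0348 to 0.00552 for *Slc1a2* and -0.00874 to 0.00710 for *Slc1a3*. Chronic against Water ran from -0.0163 to 0.00344 for *Slc1a3*, -0.0455 to 0.00859 for *Aqp4* and -0.0678 to 0.0458 for *Gfap*. Chronic against Acute ran from -0.0154 to 0.00783 for *Slc1a3*, -0.00597 to 0.0467 for *Aqp4*, -0.0161 to 0.0230 for *Gja1* and -0.0147 to 0.0307 for *S100b*. The batch difference of Acute mice ran from -0.0168 to 0.0163 for *Slc1a3*, -0.256 to 0.0833 for *Gfap* and -0.0747 to 0.0848 for *Aldh1l1*, and that of Chronic mice from -0.00725 to 0.0614 for *Slc1a3*, -0.0647 to 0.0418 for *Gjb6* and -0.0500 to 0.0622 for *S100b*.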
